A study of Mus musculus with 18 samples.

Results

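The 27 genes described here encode enzymes that make cholesterol and proteins that sense, move or store it, and they were taken by symbol from the 32015 gene symbols of each count table. Polyadenylated RNA was sequenced from cultured cells of the mouse liver cancer line Hepa1-6 and the mouse melanoma line B16. Each line had 3 libraries with the guide RNA sgNcor1-1 and 3 with sgNcor1-2, all given the genotype "Ncor1 knockout", and 3 with the control guide sgCtrl, given the genotype "WT". That makes 18 libraries in 6 groups, and a library is named here by its guide and its replicate number. The labels give no treatment or harvest time. They do not say whether the cells were single clones or pools, or whether libraries of 1 group were grown apart, so the spread behind each p-value may be technical.

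Cholesterol synthesis starts from acetyl-CoA, which is built through HMG-CoA into mevalonate and then into isoprenoid units. These are joined to farnesyl diphosphate, which either leaves the pathway for geranylgeranyl diphosphate and other isoprenoids or is condensed to squalene, cyclised to lanosterol and trimmed to cholesterol. The factor SREBP2, encoded by Srebf2, switches most genes of this route to cholesterol on together. SCAP carries it to the Golgi for cleavage when sterols are scarce, and INSIG proteins hold the pair in the endoplasmic reticulum when sterols are plentiful. NCOR1, the targeted protein, is a corepressor that brings histone deacetylase 3 to genes bound by nuclear receptors.

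The Hepa1-6 libraries held 17689335 to 30819689 counts and the B16 libraries 15663983 to 25263749. Levels are in CPM, counts scaled to a common library size after TMM correction. In B16, 10 of 10 melanocyte markers were above 1 CPM, while 7 of 14 hepatocyte markers passed 1 CPM in Hepa1-6 sgCtrl cells and the hepatocyte gene Ahsg had no count there. Markers of other cell types were present in Hepa1-6, mainly through Dcn and Gpnmb. There the 6 fibroblast markers summed to 706.6 to 1592 CPM (Dcn 1247 CPM on average in sgCtrl, with Lum and Col1a2 at 0) and the 10 melanocyte markers to 334.6 to 687 CPM (Gpnmb 589.8 CPM on average in sgCtrl, with Tyrp1, Dct and Sox10 at 0), beside 1038 to 1622 CPM for the hepatocyte markers. Leukocyte markers summed to at most 5.13 CPM in Hepa1-6 and 1.2 CPM in B16, and endothelial markers to at most 24.61 CPM in Hepa1-6. In Hepa1-6 the 3 libraries numbered 1 stood apart on the first principal component (53.3% of variance), with scores between -71.9 and -27.4 against 14.2 to 37.2 for the other 6. Of the B16 libraries, sgNcor1-1 1 was the outlying one, at -96.5 on a component with 48.6% of variance. Ncor1 RNA stood at 130.4 to 196.9 CPM in the 6 Ncor1-guide libraries of Hepa1-6 and at 221.6 to 266.3 CPM in sgCtrl, a log2 fold change of -0.62 (SE 0.17, edgeR adjusted p = 0.223). In B16 it stood at 236.5 to 367 CPM with Ncor1 guides and 279.1 to 326.5 CPM in sgCtrl, with overlapping libraries (log2 fold change -0.06, SE 0.19, edgeR adjusted p = 1). The RNA level is not a measure of NCOR1 protein.

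SREBP2 acts at promoters together with NF-Y, which binds CCAAT, and SP1, which binds GGGCGG. Promoters from RefSeq (build GRCm38.p6) were found for 22 of the 27 genes, and the 250 bases before each start were searched on both strands. Fdft1, Fdps, Npc1, Sqle and Stard4 had no entry. CCAAT was present in 20 of the 22 genes (90.9%), against 37.5% of all 27025 genes with a promoter. GGGCGG was present in 19 (86.4%), against 35.4% of all genes. The E-box CACGTG was present in 5 (Dhcr7, Hsd17b7, Insig1, Sc5d and Scap, 22.7%), against 6.86%. The sterol regulatory element form TCACNCCAC was present in Hmgcs1 alone (4.55%), against 1.22% of all genes, and no match overlapped another. A match is only a run of letters, and no match says nothing about binding.

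The promoters of 5 genes on which the results below turn are shown 5′ to 3′ on the gene's strand, with the matched letters in capitals. Hmgcs1 (chr13:119690101-119690350, + strand) is shown for its sterol element, with TCACNCCAC between bases -137 and -129. Pmvk (chr3:89454291-89454540, + strand) and Sc5d (chr9:42264301-42264550, − strand) are shown as 2 genes with higher levels in all 6 comparisons of Hepa1-6 libraries of the same number. Ggps1 (chr13:14063489-14063738, − strand) is the enzyme with a lower level in all 6, and Ebp (chrX:8193513-8193762, − strand) had the smallest p in B16.
Hmgcs1: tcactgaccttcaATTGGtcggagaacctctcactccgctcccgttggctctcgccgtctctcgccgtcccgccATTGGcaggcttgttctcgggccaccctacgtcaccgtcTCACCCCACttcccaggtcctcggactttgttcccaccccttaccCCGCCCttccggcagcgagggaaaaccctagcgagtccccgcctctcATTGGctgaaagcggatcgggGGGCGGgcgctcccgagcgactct
Pmvk: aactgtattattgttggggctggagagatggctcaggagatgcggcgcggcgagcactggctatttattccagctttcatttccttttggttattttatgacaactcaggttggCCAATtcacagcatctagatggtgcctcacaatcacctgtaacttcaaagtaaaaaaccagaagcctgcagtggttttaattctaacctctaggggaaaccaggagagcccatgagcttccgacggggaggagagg
Sc5d: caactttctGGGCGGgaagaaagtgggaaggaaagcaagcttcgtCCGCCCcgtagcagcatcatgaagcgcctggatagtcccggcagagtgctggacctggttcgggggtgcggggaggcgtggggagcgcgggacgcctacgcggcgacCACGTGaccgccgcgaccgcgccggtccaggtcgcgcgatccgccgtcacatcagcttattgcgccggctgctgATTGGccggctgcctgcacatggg
Ggps1: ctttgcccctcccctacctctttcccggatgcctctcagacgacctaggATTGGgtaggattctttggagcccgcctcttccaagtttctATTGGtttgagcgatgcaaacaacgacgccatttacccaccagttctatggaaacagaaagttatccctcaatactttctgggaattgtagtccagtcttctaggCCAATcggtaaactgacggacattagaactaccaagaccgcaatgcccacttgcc
Ebp: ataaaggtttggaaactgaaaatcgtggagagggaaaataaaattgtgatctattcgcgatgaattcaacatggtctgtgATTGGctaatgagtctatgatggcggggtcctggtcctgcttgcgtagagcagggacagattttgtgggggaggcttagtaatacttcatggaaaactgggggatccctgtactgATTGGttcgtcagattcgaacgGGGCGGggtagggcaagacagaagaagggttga
The Hmgcs1 window holds the SP1 letters on both strands and the NF-Y letters on the reverse strand beside the sterol element. In Sc5d the SP1, E-box and NF-Y letters were all present, while the Pmvk window shown held the NF-Y letters alone. RefSeq gives Pmvk another start further downstream, whose window (chr3:89459321-89459570) held none of the motifs. Ggps1 held the NF-Y letters in both orientations and no SP1 letters.

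In Hepa1-6, most of the 27 genes were more abundant in cells with either Ncor1 guide than in sgCtrl cells. None passed the edgeR test across all genes when it was fitted without the replicate number as a block. With the block, 4 passed, all higher with the guides (Pmvk, Fdps, Sqle and Sc5d), and 4.21% of all genes did. In that fit 16 of 27 (59.3%) had an unadjusted p under 0.05, against 24.4% of all genes. Whether the numbers pair these libraries was not settled, so edgeR tests below are without the block unless it is named. With both guides together, 23 of 27 had a log2 fold change above 0, with a median of 0.58 and a range from -0.52 to 1.25, against a median of 0.02 over the 12458 genes tested, of which 52.6% were above 0. The 27 genes summed to 2550, 2746 and 2567 CPM in the sgNcor1-1 libraries numbered 1, 2 and 3 and to 2568, 2910 and 2591 CPM in sgNcor1-2, against 1597, 2123 and 2352 CPM in sgCtrl. All 6 Ncor1-guide libraries lay above all 3 sgCtrl libraries in this sum, in which the abundant genes weigh most. Without the block, no member reached an adjusted p under 0.05 by edgeR, and 0.201% of all genes did (25 genes). At an unadjusted p under 0.05 there were 9 members (33.3%), against 11.1% of all genes. DESeq2 called 2 members, Sqle (adjusted p = 0.00577) and Sc5d (adjusted p = 0.0287), and called 2.76% of all genes. limma-voom called 0 members and 0.193% of all genes. The Ncor1-guide and sgCtrl libraries did not overlap for 4 members, all higher with the guides (3.89% of all genes were), and for 0 that were lower (5.24% of all genes were).

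**Figure D1:**
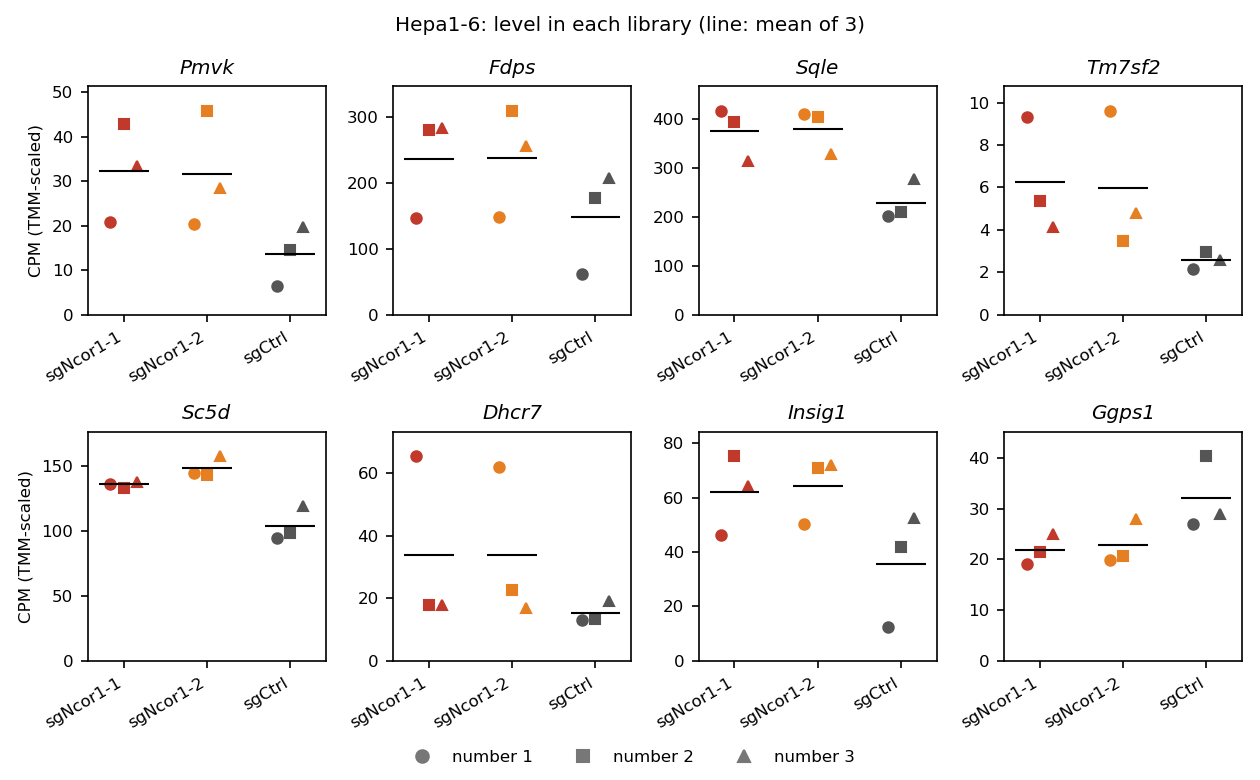
Levels of 8 genes in the 9 Hepa1-6 libraries, in CPM scaled by TMM, by guide; each symbol is a library, its shape gives the replicate number and the line is the mean of 3. Pmvk, Sqle, Tm7sf2 and Sc5d have no overlap between the Ncor1-guide libraries and sgCtrl, and Ggps1 is lower with both guides.

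The mevalonate arm had 6 of 6 genes above 0 in Hepa1-6, with a median log2 fold change of 0.59, and 0 passed the test. Pmvk, which phosphorylates mevalonate phosphate (chromosome 3, 89454541 to 89469013), had 20.81, 42.81 and 33.48 CPM in the sgNcor1-1 libraries numbered 1, 2 and 3 and 20.47, 45.87 and 28.52 CPM in sgNcor1-2, against 6.358, 14.47 and 19.79 CPM in sgCtrl. Every Ncor1-guide library was above every sgCtrl library, and the fitted fold change was 2.36 (log2 1.24, SE 0.41, edgeR adjusted p = 0.32). Hmgcs1, which makes HMG-CoA, had 183.6, 142.3 and 129.8 CPM in sgNcor1-1 and 188.2, 161.4 and 140.9 CPM in sgNcor1-2, against 85.94, 111.3 and 133.4 CPM in sgCtrl. Its groups overlapped through the libraries numbered 3, and the fold change was 1.43 (log2 0.52, SE 0.19, edgeR adjusted p = 0.362). The other 4 had log2 fold changes of 0.58 for Acat2, the thiolase that joins 2 acetyl-CoA units, 0.61 for mevalonate kinase Mvk, 0.47 for the decarboxylase Mvd and 0.70 for the isomerase Idi1, with SE between 0.33 and 0.49.

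At the prenyl branch the genes parted. Sqle, the epoxidase that oxidises squalene (chromosome 15, 59315077 to 59331192), had 416.8, 394.2 and 313.5 CPM in sgNcor1-1 and 408.7, 403 and 328 CPM in sgNcor1-2, against 201.2, 209.1 and 276.3 CPM in sgCtrl. There was no overlap, the fold change was 1.65 (log2 0.72, SE 0.17), and its edgeR p of 0.00203 was the smallest among the 27 genes (adjusted p = 0.177). Ggps1, which makes geranylgeranyl diphosphate outside the sterol route (chromosome 13, 14050659 to 14063488), went the other way, with 19.12, 21.58 and 24.96 CPM in sgNcor1-1 and 19.94, 20.69 and 27.97 CPM in sgNcor1-2, against 27.07, 40.4 and 29.04 CPM in sgCtrl. The groups overlapped only between sgNcor1-2 3 and sgCtrl 1, and the fold change was 0.695 (log2 -0.52, SE 0.20, edgeR adjusted p = 0.376). Fdps, which makes farnesyl diphosphate, had a log2 fold change of 0.67 (SE 0.40), and Fdft1, the squalene synthase, 0.30 (SE 0.33). Exons of another gene overlap 77.4% of the Fdps exon bases (the gene model Gm43738), 20.9% of those of Fdft1 (Ctsb), 18.6% of those of Scap and 16.0% of those of Hmgcs1. No source states that counting used strand, so reads from the shared bases cannot be assigned to 1 of the overlapping genes.

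The cyclisation and sterol arm had 10 of 10 genes above 0, with a median log2 fold change of 0.65 and 0 past the test. Sc5d, the lathosterol desaturase (chromosome 9, 42251595 to 42264256), had 136.1, 132.8 and 137.8 CPM in sgNcor1-1 and 144.2, 142.6 and 157.2 CPM in sgNcor1-2, against 94.04, 98.57 and 118.8 CPM in sgCtrl. The groups did not overlap and the fold change was 1.36 (log2 0.45, SE 0.13, edgeR adjusted p = 0.254). Tm7sf2, a sterol C14 reductase (chromosome 19, 6062821 to 6068373), had 9.307, 5.366 and 4.122 CPM in sgNcor1-1 and 9.624, 3.462 and 4.787 CPM in sgNcor1-2, against 2.154, 2.954 and 2.586 CPM in sgCtrl. The groups did not overlap, and the fold change was 2.38 (log2 1.25, SE 0.41, edgeR adjusted p = 0.317) at a low level. Nsdhl, a dehydrogenase of the C4 demethylation step, had 24.99, 14.67 and 19.13 CPM in sgNcor1-1 and 24.09, 17.8 and 18.35 CPM in sgNcor1-2, against 8.768, 12.12 and 14.92 CPM in sgCtrl. Here sgNcor1-1 2 lay just below sgCtrl 3 (log2 fold change 0.73, SE 0.25, edgeR adjusted p = 0.327). The largest other estimates were 1.15 for Dhcr7, which makes the final reduction to cholesterol, and 1.04 for Hsd17b7, a sterol ketoreductase, with SE of 0.55 and 0.66. The libraries numbered 1 stood apart for both, and Dhcr7 had 65.45 CPM in sgNcor1-1 and 62.05 CPM in sgNcor1-2, against 12.97 CPM in sgCtrl there. In the libraries numbered 2 and 3, Dhcr7 lay between 16.8 and 22.67 CPM with Ncor1 guides and at 13.42 and 19.24 CPM in sgCtrl. Lss, the lanosterol synthase, Cyp51, the lanosterol demethylase, Msmo1, the C4 methyl oxidase, Ebp, the sterol isomerase, and Lbr, a second C14 reductase of the nuclear membrane, had log2 fold changes between 0.42 and 0.70.

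Of the 3 sensing genes, Insig1, itself an SREBP2 target, had 46.43, 75.24 and 64.16 CPM in sgNcor1-1 and 50.35, 70.88 and 71.95 CPM in sgNcor1-2, against 12.31, 41.95 and 52.46 CPM in sgCtrl. The level of sgCtrl 1 was far below the rest, and the libraries numbered 1 with Ncor1 guides overlapped the other sgCtrl libraries (log2 fold change 0.83, SE 0.40, edgeR adjusted p = 0.483). Srebf2 had 276.1, 396.6 and 370 CPM in sgNcor1-1 and 256.4, 421.7 and 367.9 CPM in sgNcor1-2, against 197.7, 323.2 and 347.4 CPM in sgCtrl. Each Ncor1-guide library was above the sgCtrl library of its number, with overlap across numbers (log2 fold change 0.27, SE 0.23, edgeR adjusted p = 0.712). Scap had 90.14, 45.15 and 48.3 CPM in sgNcor1-1 and 87.05, 45.49 and 40.69 CPM in sgNcor1-2, against 60.46, 43.8 and 45.25 CPM in sgCtrl, and differed mainly in the libraries numbered 1 (log2 fold change 0.26, SE 0.31, edgeR adjusted p = 0.798).

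Transport and storage genes showed no common direction, with 1 of 4 above 0 and a median log2 fold change of -0.05. Stard4, which carries cholesterol between membranes, had 92.19, 59.43 and 40.05 CPM in sgNcor1-1 and 86.36, 57.57 and 47.17 CPM in sgNcor1-2, against 31.13, 39.7 and 47.24 CPM in sgCtrl. It was higher in the libraries numbered 1 and 2 and not in those numbered 3 (log2 fold change 0.70, SE 0.30, edgeR adjusted p = 0.43). Npc1, the membrane protein that lets cholesterol out of lysosomes, had 133, 310.3 and 287.6 CPM in sgNcor1-1 and 126.6, 298.6 and 296.4 CPM in sgNcor1-2, against 270.4, 274.6 and 225.9 CPM in sgCtrl. Its partner Npc2 had 90.07, 157.6 and 248.8 CPM in sgNcor1-1 and 99.48, 185.9 and 222.7 CPM in sgNcor1-2, against 157.7, 254.3 and 233.2 CPM in sgCtrl. Both were lowest in the Ncor1-guide libraries numbered 1, and their log2 fold changes were -0.09 (SE 0.32) for Npc1 and -0.36 (SE 0.34) for Npc2. Soat1, which esterifies cholesterol for storage, had 0.6279 to 1.856 CPM with Ncor1 guides and 1.094 to 1.402 CPM in sgCtrl, too low to show more than a large difference (log2 fold change -0.01, SE 0.43).

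**Figure D2:**
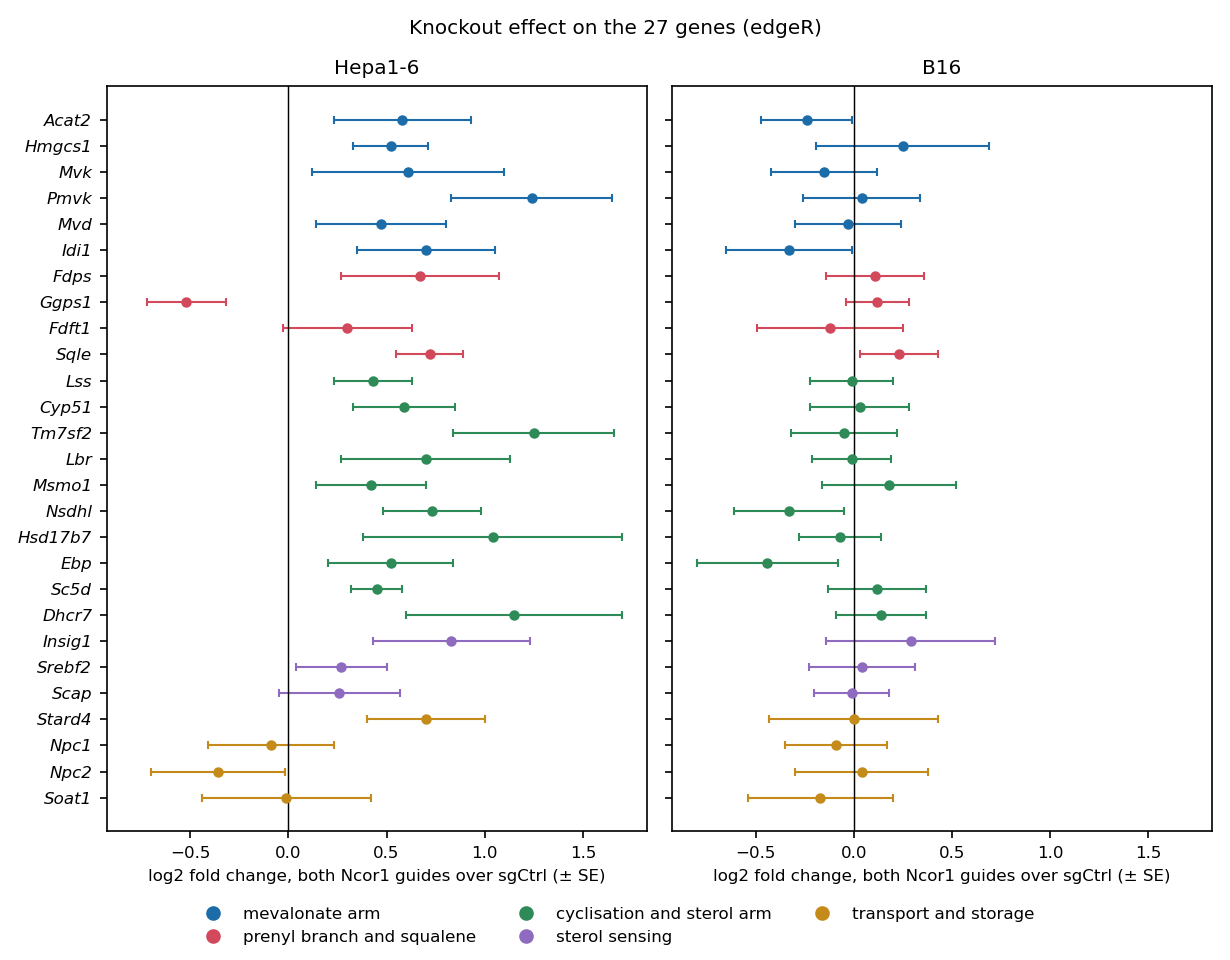
Log2 fold change of both Ncor1 guides over sgCtrl for each of the 27 genes in Hepa1-6 and in B16 (edgeR; bars are ± SE), coloured by role. In Hepa1-6, 23 points lie above 0 with a median of 0.58, and in B16, 13 lie above 0 with a median of -0.01.

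The guides were also compared with each other in Hepa1-6. The median log2 fold change over sgCtrl was 0.53 for sgNcor1-1 and 0.62 for sgNcor1-2, which share their sgCtrl libraries. With each guide alone and no block, edgeR called 0 members, against 0.0482% of all genes for sgNcor1-1 and 0.0803% for sgNcor1-2. In each, 6 had an unadjusted p under 0.05, against 7.54% and 7.65% of all genes. With the block, edgeR called 1 with sgNcor1-1 (Pmvk, 0.65% of all genes) and 0 with sgNcor1-2 (0.803% of all genes). DESeq2 called 0 with sgNcor1-1 (1.05% of all genes) and Sqle alone with sgNcor1-2 (adjusted p = 0.0396, 1.22% of all genes). Set directly against sgNcor1-2, sgNcor1-1 differed by a median log2 of -0.03, with a range from -0.13 to 0.08. In this comparison 0 members had an unadjusted p under 0.05, and only 0.0722% of all genes did. That median was -0.25 without sgNcor1-1 1, and the median of sgNcor1-1 over sgCtrl was 0.32 without sgCtrl 1 and that of sgNcor1-2 was 0.40 without sgNcor1-2 1.

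Within a replicate number, the size of the difference depended on the number. The median log2 difference of the 27 genes from the sgCtrl library of the same number was 1.23 in number 1, 0.35 in number 2 and 0.09 in number 3 for sgNcor1-1. For sgNcor1-2 it was 1.26, 0.52 and 0.05, while the medians over all genes tested lay between -0.02 and 0.02. Both guides were above sgCtrl for 24 genes in number 1, 23 in number 2 and 12 in number 3. Genes above sgCtrl in all 6 comparisons were Pmvk, Mvd, Fdps, Sqle, Tm7sf2, Nsdhl, Sc5d, Insig1 and Srebf2, 9 of 27 (33.3%), against 11.2% of all genes tested. Ggps1 was below in all 6, as were 12.9% of all genes. Pmvk differed by 1.56 with sgNcor1-1 and 1.66 with sgNcor1-2 in number 2, and by 0.76 and 0.53 in number 3. Sc5d varied little, between 0.21 and 0.62 over the 6 comparisons. Dhcr7 varied widely, from 2.33 with sgNcor1-1 in number 1 to -0.19 with sgNcor1-2 in number 3.

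**Figure D3:**
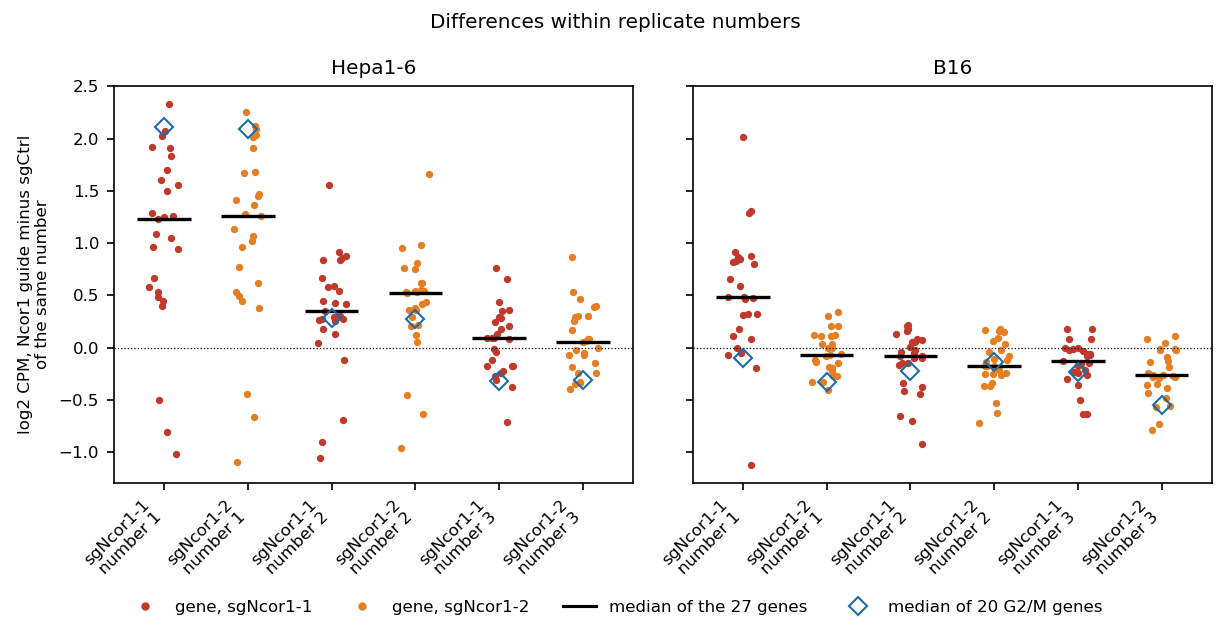
Difference in log2 CPM (prior count 2) between each Ncor1-guide library and the sgCtrl library of the same number; points are the 27 genes, bars their median and diamonds the median of 20 G2/M genes. In Hepa1-6 the medians of the 27 genes are above 1 in number 1 and near 0 in number 3, and in B16 sgNcor1-1 1 stands above the others at 0.48.

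Mitosis genes also differed by number in Hepa1-6. The 20 listed had a median difference of 2.11, 0.28 and -0.32 in numbers 1, 2 and 3 for sgNcor1-1 and of 2.09, 0.27 and -0.31 for sgNcor1-2. They summed to 4537, 2020 and 1588 CPM in sgNcor1-1 and 4157, 2036 and 1622 CPM in sgNcor1-2, against 1018, 1660 and 1978 CPM in sgCtrl. Their part in the cholesterol genes' differences was not tested. The sgCtrl 1 library had the lowest level of the 3 sgCtrl libraries for 20 of the 27 genes, and without it the median log2 fold change was 0.38. Without the 3 libraries numbered 1, the median was 0.20, with 0 genes called by edgeR and 7 at an unadjusted p under 0.05 (25.9%), against 15.7% of all genes, and 0.263% of all genes were called. The Ncor1-guide libraries numbered 1 themselves were split. They lay above the other 4 Ncor1-guide libraries for 15 genes, among them Dhcr7, Hsd17b7, Lbr and Mvk, and below them for 10, among them Pmvk, Fdps, Insig1, Npc1 and Ggps1.

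In B16 the same genes were split between both directions when all 9 libraries were used. The log2 fold change was above 0 for 13 genes and below 0 for 14, with a median of -0.01 and a range from -0.44 to 0.29, against a median of 0.01 over the 12347 genes tested. Without the libraries numbered 1, which include the outlying sgNcor1-1 1, 22 of 27 were below 0 and 5 above, with a median of -0.15. Over all genes the median was -0.01, and 48.5% were above 0. In that fit edgeR called 0 members and 0% of all 12441 genes. Within numbers, both guides were below sgCtrl for 4 genes in number 1, 14 in number 2 and 19 in number 3, and both were above it for 12, 4 and 1. No member was called by edgeR, against 0.0324% of all genes, and 0 had an unadjusted p under 0.05, against 2.36% of all genes. That fit had no replicate block. With the replicate number as a block, edgeR called 0 members, and 1 (3.7%) had an unadjusted p under 0.05, against 8.05% of all genes. DESeq2 and limma-voom also called 0 of the 27, against 0.348% and 0.0729% of all genes. No member had Ncor1-guide and sgCtrl libraries without overlap, against 0.81% of all genes higher and 1.37% lower. The 27 genes summed to 3088, 1574 and 1979 CPM in sgNcor1-1 and to 1891, 1520 and 1849 CPM in sgNcor1-2, against 1951, 1650 and 2175 CPM in sgCtrl. The high sum belonged to sgNcor1-1 1, and the other 5 Ncor1-guide libraries were each below the sgCtrl library of their number.

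**Figure D4:**
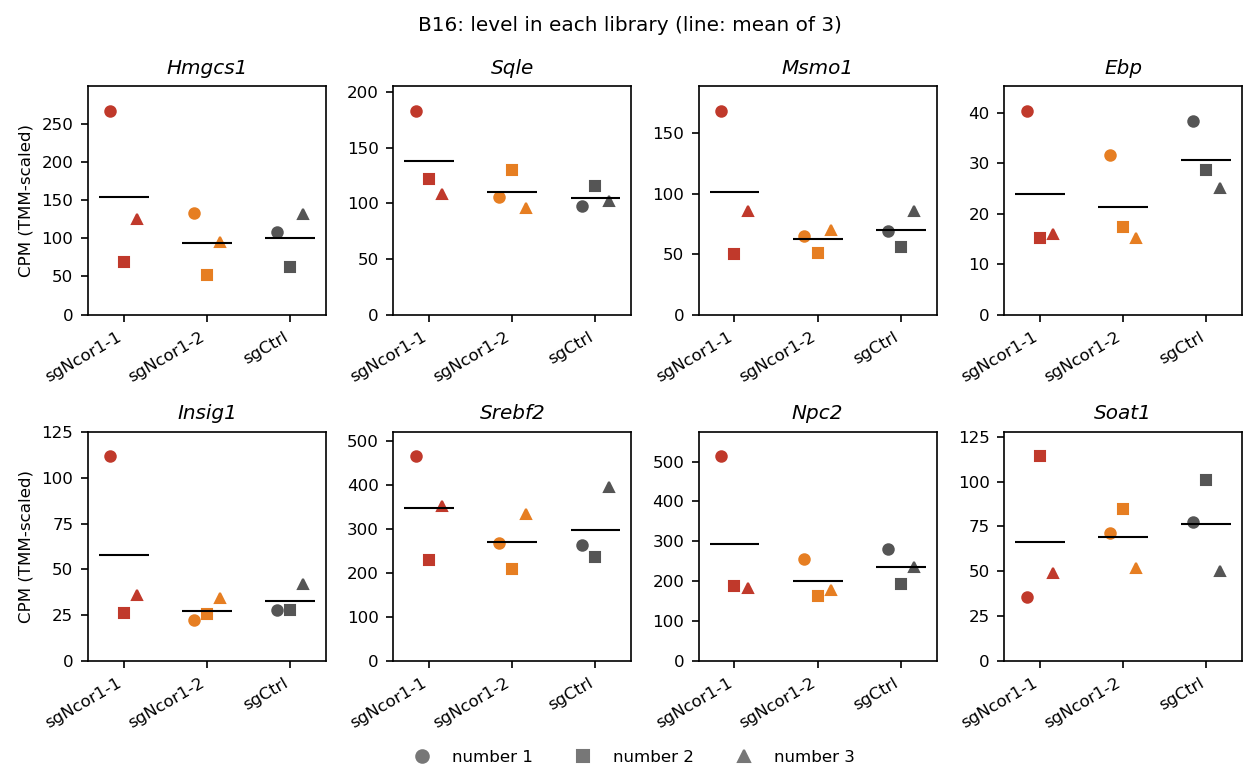
Levels of 8 genes in the 9 B16 libraries, in CPM scaled by TMM, by guide; each symbol is a library, its shape gives the replicate number and the line is the mean of 3. The library sgNcor1-1 1 is the highest in 7 of the panels and the lowest for Soat1, and Ebp is lower in Ncor1-guide libraries 2 and 3 than in every sgCtrl library.

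The smallest p in B16 was that of Ebp, the sterol isomerase (chromosome X, 8185329 to 8193512). It had 40.46, 15.16 and 16.06 CPM in the sgNcor1-1 libraries numbered 1, 2 and 3 and 31.69, 17.42 and 15.16 CPM in sgNcor1-2, against 38.34, 28.7 and 25.16 CPM in sgCtrl. All 4 Ncor1-guide libraries numbered 2 and 3 were below all 3 sgCtrl libraries, and those numbered 1 overlapped them (log2 fold change -0.44, SE 0.36, edgeR adjusted p = 1). In a fit blocked by replicate number, which called 0 members with all 9 libraries (0.389% of all genes), leaving out sgNcor1-1 1 made Ebp a called gene. There Ebp was the only member called (log2 fold change -0.64, SE 0.12, edgeR adjusted p = 0.0329), and 2.7% of all genes were called. With the block and without every library numbered 1 it was again the only member (log2 fold change -0.75, SE 0.13, edgeR adjusted p = 0.0211), and 3.25% of all genes were called. In Hepa1-6 the Ebp estimate had the opposite sign (log2 fold change 0.52, SE 0.32, edgeR adjusted p = 0.583), and the difference of Hepa1-6 minus B16 was 0.98 (SE 0.51, edgeR adjusted p = 0.777).

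Sqle had 183.2, 121.8 and 108 CPM in sgNcor1-1 and 105.6, 130.1 and 95.72 CPM in sgNcor1-2, against 97.52, 115.1 and 102 CPM in sgCtrl of B16, so that only sgNcor1-1 1 stood clear of the rest (log2 fold change 0.23, SE 0.20, edgeR adjusted p = 1). Nsdhl had 29.1, 11.79 and 20.58 CPM in sgNcor1-1 and 23.07, 16.17 and 17.07 CPM in sgNcor1-2, against 29.05, 19.24 and 25.38 CPM in sgCtrl. Idi1 had 58.92, 20.51 and 42.17 CPM in sgNcor1-1 and 28.13, 25.01 and 34.56 CPM in sgNcor1-2, against 37.35, 32.32 and 59.64 CPM in sgCtrl. Both overlapped with sgCtrl and had a log2 fold change of -0.33, with SE of 0.28 for Nsdhl and 0.32 for Idi1.

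Among the B16 sensing genes, Insig1 had 111.8, 26.22 and 35.83 CPM in sgNcor1-1 and 22.06, 25.23 and 34.51 CPM in sgNcor1-2, against 27.67, 27.8 and 41.9 CPM in sgCtrl. The sgNcor1-1 1 value stood alone, and the log2 fold change was 0.29 (SE 0.43). Srebf2 had 464.7, 227.9 and 351.9 CPM in sgNcor1-1 and 267.4, 209.2 and 334 CPM in sgNcor1-2, against 262.4, 236.6 and 395.3 CPM in sgCtrl, with overlap (log2 fold change 0.04, SE 0.27). Scap lay between 65.82 and 109.5 CPM with Ncor1 guides and between 79.44 and 97.5 CPM in sgCtrl (log2 fold change -0.01, SE 0.19). Its level differed more by number than by guide.

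Of the B16 transport genes, Npc1 had 220.4, 131.3 and 143.1 CPM in sgNcor1-1 and 221.6, 122.3 and 157.4 CPM in sgNcor1-2, against 231.7, 138.9 and 159.1 CPM in sgCtrl. It was the only member below sgCtrl in all 6 comparisons of the same number, as were 6.91% of all genes, and no member was above in all 6, against 5.82% of all genes. Its log2 fold change was -0.09 (SE 0.26). Npc2 had 513, 187.2 and 182.1 CPM in sgNcor1-1 and 254.9, 163 and 178 CPM in sgNcor1-2, against 280.8, 191.9 and 234 CPM in sgCtrl. Soat1 had 35.39, 114.2 and 49.1 CPM in sgNcor1-1 and 71.32, 84.76 and 51.73 CPM in sgNcor1-2, against 77.27, 100.9 and 50.23 CPM in sgCtrl. Npc2 was highest and Soat1 lowest in sgNcor1-1 1, and neither differed beyond the overlap of its libraries.

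The library sgNcor1-1 1 of B16 had the highest level of 9 libraries for 16 of the 27 genes. Its median difference from sgCtrl 1 was 0.48, against -0.08 and -0.13 for sgNcor1-1 in numbers 2 and 3 and -0.07, -0.18 and -0.26 for sgNcor1-2. Insig1 differed most in it, by 2.01, and Hmgcs1 by 1.31. The same library had the fewest detected genes of its line (13982) and its TMM scaling was 0.792, with 0.978 to 1.091 in the other 8, and 12 of its 13 mitochondrially encoded mRNAs were below sgCtrl 1, with a median difference of -1.54, although their summed level was 18230 CPM in it and 13940 CPM in sgCtrl 1. Their part in its cholesterol gene levels was not tested. Without this library the median log2 fold change with both guides was -0.09, and it was -0.05 for sgNcor1-1 alone, against 0.12 with it. Mitosis genes in B16 were below sgCtrl in 20 of 20 with both guides (median log2 fold change -0.24, 0 called). For sgNcor1-1 alone and sgNcor1-2 alone, 18 and 3 of the 27 cholesterol genes were above 0, and edgeR without the block called 0 with each guide (0.0081% of all genes in each). With the block it called 0 with each (0.0891% and 0.178% of all genes). There 1 member (3.7%) had an unadjusted p under 0.05 with each guide, against 7.74% and 7.65% of all genes. Set directly against sgNcor1-2, sgNcor1-1 had a median log2 fold change of 0.27, which was 0.10 without sgNcor1-1 1. With all 9 libraries edgeR called 0 members and 0% of all genes in this comparison, with or without the block. With the block 2 members (7.41%) had an unadjusted p under 0.05, against 5.35% of all genes.

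Whether the effect of the guides differed between the lines was tested as Hepa1-6 minus B16 in a joint fit. The difference was above 0 for 25 of 27 genes, with a median log2 of 0.56 and a range from -0.64 to 1.32, against a median of 0.01 over 14044 genes tested. None was called by edgeR without the block, against 0.178% of all genes, and with the block 1 was (Pmvk), against 1.68% of all genes. Without it, 4 had an unadjusted p under 0.05, against 6.91% of all genes. These were Nsdhl (1.07, SE 0.39), Tm7sf2 (1.32, SE 0.50), Pmvk (1.20, SE 0.52) and Ggps1 (-0.64, SE 0.26), with adjusted p between 0.57 and 0.681. DESeq2 and limma-voom called 0 as well (0.776% and 0.228% of all genes), with 5 at an unadjusted p under 0.05 in each, against 8.12% of all genes by DESeq2 and 6.35% by limma-voom. By role, the median difference was 0.79 for the mevalonate arm, 0.46 for the prenyl branch and squalene, 0.85 for the sterol arm, 0.27 for sensing and 0.09 for transport and storage. Without Hepa1-6 sgCtrl 1 the median over the 27 genes was 0.26. The 20 mitosis genes differed in the same direction, by a median log2 of 0.98, and their part was not tested.

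Control cells of the lines differed at 11 of the 27 genes by edgeR, among 59.4% of all genes called, so the members' share lies below that of all genes. Higher in Hepa1-6 sgCtrl than in B16 sgCtrl were 3 genes, against 29.6% of all genes. They were Sc5d, with 94.04, 98.57 and 118.8 CPM against 34.88, 24.06 and 26.87 CPM (fold change 3.7, log2 1.89, SE 0.24, edgeR adjusted p = 4.12e-06), Sqle (log2 1.16, SE 0.21, adjusted p = 0.00018) and Msmo1 (log2 0.94, SE 0.37, adjusted p = 0.0377). Lower in Hepa1-6 were 8, against 29.8% of all genes, namely Soat1, Tm7sf2, Dhcr7, Mvk, Nsdhl, Acat2, Cyp51 and Scap. Soat1 differed most, with 1.333, 1.402 and 1.094 CPM in Hepa1-6 against 77.27, 100.9 and 50.23 CPM in B16 (log2 fold change -5.86, SE 0.52, edgeR adjusted p = 7.33e-08), and Tm7sf2 was next (log2 fold change -2.01, SE 0.42, adjusted p = 0.000596). Leaving out each of the 18 libraries in turn kept the calls of Soat1, Tm7sf2, Sc5d and Sqle in all 18 fits. The number called was 6 without Hepa1-6 sgCtrl 2 or without B16 sgCtrl 3, and 7 without Hepa1-6 sgCtrl 1 or without B16 sgCtrl 2. The share of all genes called was not recorded in these fits. Line and count table cannot be told apart in this comparison.

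**Figure D5:**
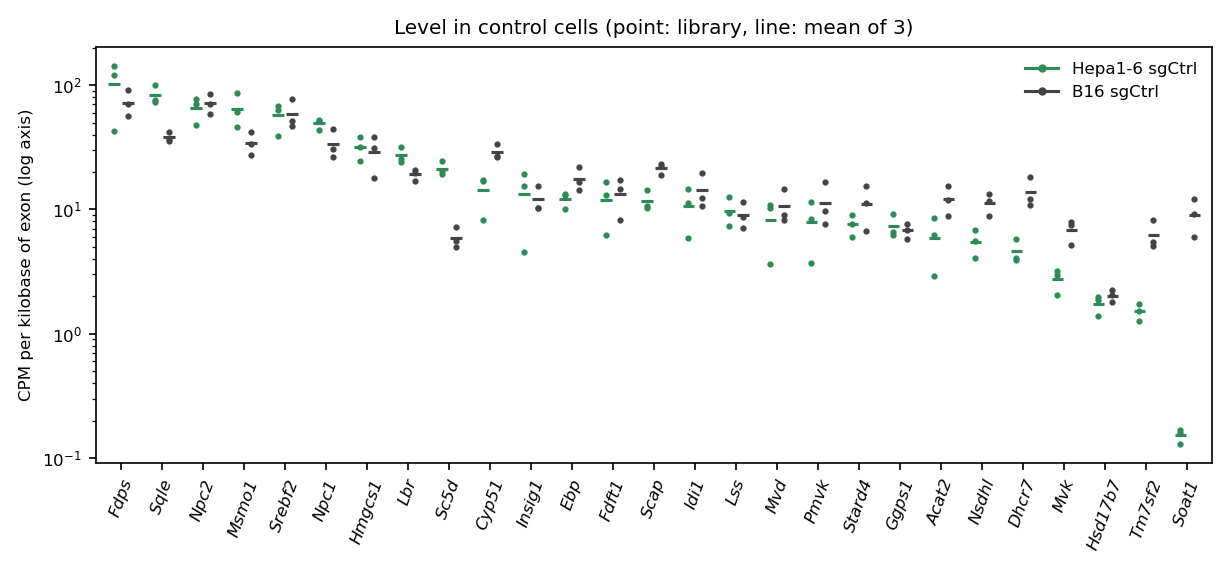
Level of each of the 27 genes in sgCtrl cells of Hepa1-6 and B16, in CPM per kilobase of exon on a log axis; points are libraries and lines the mean of 3. Fdps leads in both lines, though 77.4% of its exon bases are shared with the gene model Gm43738. Soat1 is 0.152 in Hepa1-6 and 9.09 in B16.

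Per kilobase of merged exon, the most abundant of the 27 mRNAs in Hepa1-6 sgCtrl was Fdps, at 102.1 ± 52.8 CPM per kilobase (SD, n = 3), then Sqle at 82.98 ± 15.0, Npc2 at 65.19 ± 15.4 and Msmo1 at 64.56 ± 20.5. The least abundant were Hsd17b7 at 1.738 ± 0.315, Tm7sf2 at 1.514 ± 0.236 and Soat1 at 0.1524 ± 0.0193. In B16 sgCtrl the order began with Fdps at 72.39 ± 17.4, Npc2 at 71.41 ± 13.5 and Srebf2 at 58.72 ± 16.8, and ended with Sc5d at 5.878 ± 1.15 and Hsd17b7 at 2.026 ± 0.223. Reads from the 77.4% of Fdps exon bases shared with Gm43738 cannot be assigned, so the place of Fdps is uncertain in both lines. The medians over the 27 genes were 11.79 in Hepa1-6 and 13.4 in B16. Of 26 neighbours in this order, 21 overlapped between libraries in Hepa1-6 and 23 in B16, so most adjacent ranks do not differ beyond their spread. In Hepa1-6 the clear steps were from Npc1 to Hmgcs1, Sc5d to Cyp51, Dhcr7 to Mvk, Mvk to Hsd17b7 and Tm7sf2 to Soat1.

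Other genes of the pathway were taken from 3 lists, which were not tested against the 27 genes. Of 17 partners of SREBP processing and sterol-driven degradation, 10 were above 0 in Hepa1-6 (median log2 fold change 0.06, 2 at an unadjusted p under 0.05) and 11 in B16 (median 0.05), with 0 called in either line. In Hepa1-6 number 2 the partners were above sgCtrl in 14 of 17 with sgNcor1-1 and 13 of 17 with sgNcor1-2, against 49.9% and 51.5% of all genes. In numbers 1 and 3 they were above it in 7 or 8 of 17. Among them Srebf1, which encodes the SREBP1 factors of fatty acid synthesis, had 323.2, 376.1 and 340.9 CPM in sgNcor1-1 and 321, 429.4 and 356.6 CPM in sgNcor1-2, against 147.8, 216.9 and 244.4 CPM in sgCtrl of Hepa1-6. All 6 Ncor1-guide libraries were above all sgCtrl libraries (log2 fold change 0.82, SE 0.19, edgeR adjusted p = 0.169). In B16 its log2 fold change was 0.27 (SE 0.18). Sp1 was lower in Hepa1-6 by the estimate (log2 fold change -0.48, SE 0.20, edgeR adjusted p = 0.426).

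Of 17 genes of lipoprotein uptake and cholesterol traffic, 7 were above 0 in Hepa1-6 (median log2 fold change -0.04) and 9 of 16 tested in B16 (median 0.05), with 0 called. In Hepa1-6 the smallest p belonged to Gramd1c, which encodes a sterol transfer protein of the endoplasmic reticulum (log2 fold change -1.12, SE 0.43), the lipoprotein receptor Lrp1 (-0.87, SE 0.39) and the sterol-regulated gene Tmem97 (0.66, SE 0.32), with edgeR adjusted p of 0.39, 0.448 and 0.491. In B16 they belonged to Gramd1b, a relative of Gramd1c (log2 fold change 0.59, SE 0.19), Mylip, a ubiquitin ligase for lipoprotein receptors (0.58, SE 0.19), and the receptor Lrp8 (-0.45, SE 0.20), each with an edgeR adjusted p of 1. Gramd1b in B16 had 52.07, 39.69 and 54.8 CPM in sgNcor1-1 and 57.6, 38.88 and 54.54 CPM in sgNcor1-2, against 35.67, 31.72 and 31.73 CPM in sgCtrl, with no overlap.

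Of 15 genes that use isoprenoids, for dolichol, coenzyme Q and protein prenylation, 9 were above 0 in each line, with medians of 0.12 in Hepa1-6 and 0.08 in B16 and 0 called. In Hepa1-6 number 2, 12 of 15 were above sgCtrl with sgNcor1-1 and 11 of 15 with sgNcor1-2, against 49.9% and 51.5% of all genes. In number 1 it was 10 of 15 with each guide, and in number 3 it was 8 of 15 with sgNcor1-1 and 6 of 15 with sgNcor1-2. Coq2, a prenyltransferase of coenzyme Q synthesis, had the smallest p of the list in Hepa1-6, with 22.83, 20.38 and 7.855 CPM in sgNcor1-1 and 23.78, 15.45 and 10.02 CPM in sgNcor1-2, against 12.61, 4.956 and 8.006 CPM in sgCtrl (log2 fold change 0.97, SE 0.44, edgeR adjusted p = 0.461). In the libraries numbered 3 it was close to sgCtrl. As these are bulk libraries, fewer cells with a transcript and less of it per cell cannot be told apart for any of these genes.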

How the data were processed

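Per the submitters' processing notes, reads were handled with FastQC 0.12.1, Trim Galore 0.6.7, Bowtie2 2.2.5 and RSEM 1.2.8 on mm10; no source used here names the gene annotation. The authors deposited RSEM expected counts per gene symbol, 1 table per line, of which 7.87% in Hepa1-6 and 7.19% in B16 were not whole, since RSEM shares reads between similar genes. They were rounded. No other per-sample columns were present.

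Levels are CPM with TMM-scaled library sizes. Differences were tested by quasi-likelihood in edgeR 4.0.16 (R 4.3.3; filterByExpr, robust) with 1 mean per group, fitted on all genes of a line (all 18 libraries for comparisons between lines), with Benjamini-Hochberg adjustment over all genes tested and calls at an adjusted p under 0.05. All 27 members passed the filter on low counts in both lines. SE is that of the log2 fold change, derived from the edgeR test as its absolute value divided by the square root of the F statistic. Alternatives were DESeq2 1.42.0, limma-voom 3.58.1, other scaling, filters, left-out libraries and the replicate number as a block; the code was tested on simulated data. No 2 libraries were alike within sampling noise (lowest chi-square per degree of freedom 10.97 in Hepa1-6 and 6.36 in B16).

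Deviations from group means correlated between libraries of the same number at 0.50 to 0.74 in B16 (9 of 9 pairs above 0.1), so the numbers were taken to pair those libraries. The main B16 tests had no block all the same. Counts from the fit blocked by number are given beside them for both guides together, each guide alone and guide against guide. SE and adjusted p of single B16 genes are from the fit without the block unless the block is named.

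Exon lengths and positions came from GENCODE M21 (GRCm38, which is mm10). Values per library are given for the members with the 8 smallest p in Hepa1-6 and the 4 smallest in B16, for Srebf2, Scap, Insig1, Npc1, Npc2 and Soat1, and for up to 3 genes of each pathway list; other per-library values were chosen after they were seen. The members and lists were chosen with earlier results of these data known. Counts limit the precision of low genes such as Soat1 in Hepa1-6.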

Additional observations from a re-analysis of the deposited data

How the results depend on the processing

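With both guides in Hepa1-6, 0 members were called by edgeR, 2 by DESeq2 (Sqle and Sc5d) and 4 with a replicate block, which were Pmvk (log2 fold change 1.29, adjusted p = 0.02), Fdps (0.77, adjusted p = 0.0375), Sqle (0.71, adjusted p = 0.0417) and Sc5d (0.45, adjusted p = 0.0491); the block called 4.21% of all genes there, against 0.201% without it. In Hepa1-6, same-number libraries correlated at 0.05 to 0.91, with 8 of 9 pairs above 0.1 and 1 under it. Whether the numbers pair all these libraries was therefore not settled, and the main results are those without the block. With the block and both guides, 16 of the 27 genes (59.3%) had an unadjusted p under 0.05, against 24.4% of all genes. With sgNcor1-1 alone the block called 1 (Pmvk, adjusted p = 0.0493, 0.65% of all genes), with sgNcor1-2 alone DESeq2 called 1 (Sqle), and in the difference between lines the block called 1 (Pmvk, log2 difference 1.21, adjusted p = 0.0392, 1.68% of all genes). In B16 the block alone called 0 members, and it called 1 (Ebp) both without sgNcor1-1 1 and without the libraries numbered 1; it changed no other call there with both guides. Between the control lines the block called 14 of the 27 genes (72.2% of all genes), against 11 (59.4%) without it. With all libraries and both guides, edgeR called 0.201% of all genes in Hepa1-6, 0.0324% in B16 and 0.178% for the difference between lines. Leaving out 1 library at a time without the block gave 0 members called in every comparison with Ncor1 guides and 6 to 11 between the control lines. The share of all genes called was not recorded in these fits, so these counts cannot be set against a background. The median log2 fold change then ranged from 0.38 to 0.71 in Hepa1-6, from -0.09 to 0.14 in B16 and from 0.26 to 0.71 for the difference between lines; from -0.25 to 0.04 between the guides in Hepa1-6 and from -0.27 to 0.01 for sgNcor1-2 in B16. Of 432 values for Hepa1-6 with both guides under alternatives, 393 kept their side of the threshold and moved by under 1 SE, and 15 changed sign; in B16 these were 449 of 459 and 86. Only between the control lines were members called in the main fit, and none of those 11 changed sign under alternatives. In comparisons with Ncor1 guides no member was called in the main fit, so no call could reverse there. With 3 libraries per group, the SE of most members in Hepa1-6 was over 0.25 on the log2 scale.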
